A study of Mus musculus with 6 samples.

Results

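Osteopontin, encoded by Spp1, and the genes of 9 of its receptor chains were followed in tumor cells from 6 mammary tumors treated with an antibody against VEGF-A. The 10 genes were chosen by name as osteopontin and 9 of its receptor chains, not all of them. They are the ligand Spp1 and the hyaluronan receptor Cd44. The integrin α subunits are Itgav, Itga4, Itga5 and Itga9, and the integrin β subunits are Itgb1, Itgb3, Itgb5 and Itgb6. All 10 were found among the 47643 genes of the count files, of which 21717 had a count in at least 1 tumor. Spp1 was among the 22 most abundant genes by TPM in every tumor, the chains αv, β1, β3 and β5 and Cd44 were present in all 6, and Itga4 and Itga5 had at most 3 counts in any tumor. No member passed the adjusted test of a trend with the hypoxia score of the tumors, and neither did any other of the 12560 genes tested.

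The tumors came from MMTV-PyMT mice (FVB/N), whose transgene uses the mouse mammary tumor virus promoter to express the polyoma middle T oncogene in the mammary epithelium. The mice received B20-4.1.1, an anti-VEGF-A antibody, at 5 mg/kg injected 2 times a week for 6 weeks from 7 weeks of age, so the 6 tumors form 1 treatment group. CD45-EPCAM+ cells, which by the study's methods were also CD31- and PDGFRα-, were sorted from each tumor. The study is about tumors that do or do not become hypoxic under this antibody, but the hypoxia class of these 6 tumors is not known here. Untreated tumors were not analysed here, and no groups were compared. Values are given for tumors 1 to 6, and hypoxia enters only as a continuous score.

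Osteopontin is a secreted, highly phosphorylated glycoprotein of bone matrix, milk and many carcinomas. It binds integrins, which are heterodimers of an α and a β chain, through an arginine-glycine-aspartate motif that αvβ1, αvβ3, αvβ5, αvβ6 and α5β1 recognise. An adjacent stretch, exposed when thrombin cuts the protein, is bound by α4β1 and α9β1, and osteopontin is also described as a ligand of CD44. In the mammary gland, Spp1 is expressed by luminal epithelium and is a component of milk. In tumors it is also a product of macrophages.

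Spp1 (ENSMUSG00000029304) is a plus-strand gene of chromosome 5 (GRCm38), from 104435118 to 104441050. The integrin-binding site is shown because it is what the receptor chains below share as a target. It is encoded in exon 6 of the 7 exons of the transcript Spp1-201, at chr5:104439472-104439510 on the plus strand. The capitals mark the codons of arginine, glycine and aspartate, which begin at codon 144 of 294 and are the only such run in this reading frame. The bases that follow encode the stretch bound by α4β1 and α9β1.

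Spp1 integrin-binding site: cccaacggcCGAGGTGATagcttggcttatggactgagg

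The promoter is shown because the study asks whether hypoxia raises Spp1. The 250 bases before the start of Spp1 in RefSeq, at chr5:104434861-104435110 of GRCm38.p6 on the plus strand, are printed with the RUNX core AACCACA in capitals. This core, searched on both strands, was found in 5.27% of 32851 promoter windows of 250 bases before and 50 bases after a gene's start. Among the members it was found only in this Spp1 window, in 1 of 11 windows. The core of the hypoxia response element, ACGTG or GCGTG on either strand, was not found in either Spp1 window, and was found in 43.8% of all windows. It was found in 4 of the 11 member windows, a window each of Cd44, Itga4, Itga9 and Itgb5, so in 4 of the 9 members with a window. RefSeq promoter windows were matched by symbol, and none was matched for Itgb3. A match is a description of the letters and not of binding, and the absence of one holds for this window alone. By another method, the study predicted sites for the hypoxia-inducible factor HIF1α in the mouse and human Spp1 promoters. It also reported that hypoxia raised Spp1 mRNA in breast cancer cell lines. The stretch it searched was not compared with this window.

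Spp1 promoter: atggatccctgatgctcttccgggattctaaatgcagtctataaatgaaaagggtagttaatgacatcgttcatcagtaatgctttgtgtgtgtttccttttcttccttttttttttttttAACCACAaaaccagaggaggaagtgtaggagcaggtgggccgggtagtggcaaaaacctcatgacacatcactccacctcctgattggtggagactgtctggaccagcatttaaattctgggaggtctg

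Counts on genes lay between 2509482 in tumor 2 and 5893246 in tumor 1, and 3 counts, taken as the floor of detection, correspond to between 0.509 and 1.20 CPM (counts scaled to the same total in every library). The library of tumor 1 stood apart, its median r to the remaining 5 being 0.788 over 8873 genes, while the same median was 0.905 to 0.939 for each of the rest. Epcam, the surface marker of the sort, lay between 611 and 972 CPM. The sum of 10 leukocyte and macrophage markers was 242 CPM in tumor 3 and ranged from 17.2 to 55.1 CPM elsewhere, with Ptprc, the gene of CD45, at no more than 3.39 CPM. The 4 T cell markers reached 1.21 CPM and the 5 endothelial markers 4.12 CPM in sum, with Emcn at a count of 0 in all 6 tumors. The sum of 7 basal epithelial markers was 534 CPM in tumor 5, nearly all of it Krt14 and Krt17, and ranged from 171 to 352 CPM elsewhere. Erythroid markers reached 864 CPM in tumor 3. Of the marker genes of smooth muscle, Acta2 and Myh11 stayed at or below 1.21 CPM. These values are set beside the members below where they move with them. Since the samples are bulk, fewer cells of a type and less RNA per cell cannot be told apart.

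Spp1 was the most abundant of the 10 genes in TPM, which is divided by exon length and scaled to the same total. Tumors 1 to 6 had 3311, 2954, 4068, 2045, 3572 and 4311 CPM of Spp1. The mean was 3377 CPM ± 818 (SD, n = 6), and the highest tumor was 2.11-fold above the lowest. Tumors 6 and 3 were high and tumor 4 was low. No neighbours in this order had overlapping 95% Poisson intervals, with between 7413 and 22082 counts behind each value. Such intervals cover counting error only, and whether reads of 1 molecule were merged by their molecular identifiers is not given in the sources used here. The rank of Spp1 among all genes was between 10 and 22 by TPM, and between 13 and 26 by CPM.

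The spread of Spp1 between tumors was close to that of other genes of its abundance. Its biological coefficient of variation in edgeR, the part of the spread beyond counting noise, was 0.326. The value fitted for genes of that abundance was 0.364, and the median of 10416 genes was 0.323. In edgeR the value of a gene is drawn toward the fitted one, so some closeness to it is built in. By the ratio of its value to the fitted one, Spp1 stood at percentile 45.0 of these genes, and with each tumor left out in turn at percentiles between 18.2 without tumor 4 and 79.6 without tumor 1. The tumor with the highest Spp1 level, tumor 6, had 42.0 CPM of leukocyte and macrophage markers in sum, and tumor 3, with the next highest, had 242 CPM. The part of these markers in the level of Spp1 was not tested. Other secreted phosphoproteins of the same family (Ibsp, Dmp1, Dspp and Mepe) had no more than 3 counts in any tumor, so 0 of 4 rose above the floor.

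The 5 genes whose levels were most like that of Spp1 over the 6 tumors were Bud31, a splicing factor, Polr2c, a subunit of RNA polymerase II, Crip1, Tor1a and Slc35e4. Pearson's r of log2(TMM-scaled CPM + 1), where TMM is edgeR's scaling between libraries, lay between 0.954 and 0.982. These genes were chosen for their r among 8872 genes whose mean level reached 10 CPM, so the values are a description and have no test. In all, 13 genes, or 0.147%, had an r above 0.9 with Spp1. Bud31 varied little, from 35.1 CPM in tumor 4 to 50.2 CPM in tumor 3.

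**Figure D1:**
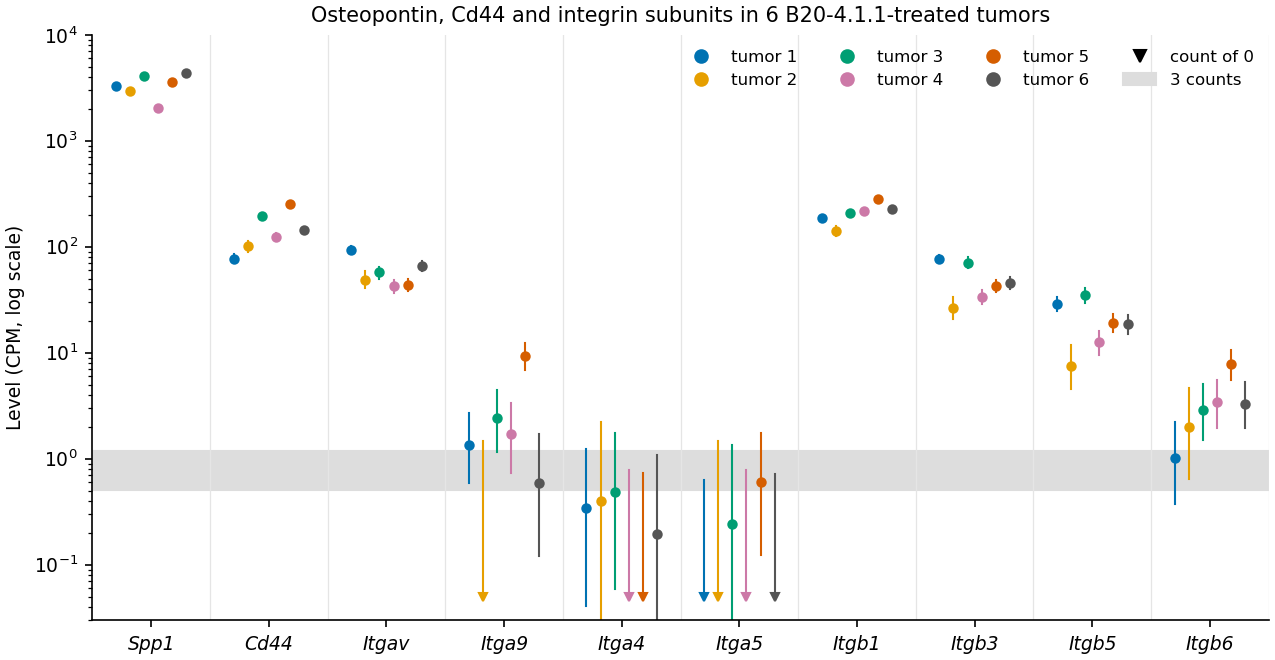
Level of each member in each of the 6 tumors in CPM on a log axis, with 95% Poisson intervals as lines, a triangle for a count of 0 and a gray band for the level of 3 counts. Spp1 lies between 2045 and 4311 CPM, lowest in tumor 4, and Itga4 and Itga5 lie in or under the band in all tumors.

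Cd44 (ENSMUSG00000005087, minus strand of chromosome 2 from 102811141 to 102901665) encodes the main cell surface receptor for hyaluronan and is widely used as a marker of basal and stem-like mammary cells. Tumors 1 to 6 had 77.2, 101, 194, 123, 251 and 144 CPM of Cd44. Tumor 5 was 3.25-fold above tumor 1, and the counting intervals of tumors 6 and 4 and of tumors 4 and 2 overlapped. The mean was 148 CPM ± 64.1 (SD, n = 6). The order of Cd44 differed from that of Spp1: tumor 4, lowest for Spp1, was the fourth for Cd44, and tumor 1, lowest for Cd44, was the fourth for Spp1.

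Some markers of other cells were highest in the tumors with most Cd44. Tumor 5, the highest for Cd44, had the most of the basal keratins Krt14 and Krt17 but not of Krt5, Trp63, Mylk or Acta2, and tumor 3, the next, had the most leukocyte and macrophage markers (242 CPM in sum). Their part in the level of Cd44 was not tested. The biological coefficient of variation of Cd44 was 0.386, and its ratio to the fitted value stood at percentile 79.6. Its 5 most similar genes were Ccng2, Hpf1, Tpp1, Rbbp7 and D3Ertd254e, with r between 0.987 and 0.995, and 204 genes, or 2.30%, had an r above 0.9. Ccng2, a cyclin linked to cell cycle arrest, ran from 5.43 CPM in tumor 1 to 63.1 CPM in tumor 5.

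The splice forms of Cd44 were not measured, since the libraries read the 3′ end that they share. The genes around it in the hyaluronan pathway were given by a list of 13, of which 10 had more than 3 counts in some tumor. Ezr, which links CD44 to actin, lay between 409 and 698 CPM, and its relatives Rdx and Msn between 162 and 321 CPM and between 131 and 250 CPM. Esrp1, an epithelial splicing regulator known to act on Cd44, lay between 185 and 260 CPM. The hyaluronan synthases Has1 and Has3 did not exceed 3 counts, and Has2 reached 2.34 CPM. None of the 10 tested genes passed the adjusted trend test described below. The hyaluronan-binding protein gene Hmmr, named after its values were seen, was the only 1 with an unadjusted p under 0.05, with a slope of 1.69 (SE 0.47, adjusted p = 0.937 in edgeR). Of all genes tested, 4.3% had such a p.

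Of the 4 α subunits among the members, αv was the most abundant. Itgav (ENSMUSG00000027087, plus strand of chromosome 2 from 83724397 to 83806916), the α chain of the αv integrins that bind the arginine-glycine-aspartate motif, had its lowest level of 42.3 CPM in tumor 4, a median of 53.1 CPM and its highest level of 94.2 CPM in tumor 1. Tumor 1, whose library stood apart, was above all others, and the other 5 tumors reached 65.6 CPM. Only tumors 1 and 6 were neighbours in the order whose counting intervals did not overlap. In TPM, Itgav made up between 75.1 and 99.4% of the summed level of these 4 α subunits, with a median of 96.2%. In CPM its share was between 81.3 and 99.2%. Itga8, an α chain that binds the same motif, is not a member and not in this sum. It lay between 6.28 and 25.0 CPM, so the share holds for these 4 alone.

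Itga9 (ENSMUSG00000039115, plus strand of chromosome 9 from 118606690 to 118901003), the α chain of α9β1, was low in 5 tumors and higher in 1. Tumors 1 to 6 had 8, 0, 10, 8, 47 and 3 counts of it. These correspond to 1.36, 0, 2.42, 1.70, 9.38 and 0.586 CPM, and the count of 0 in tumor 2 has a 95% Poisson upper bound of 1.47 CPM. The counting interval of tumor 5, from 6.90 to 12.5 CPM, did not overlap that of any other tumor, while the other 5 overlapped with their neighbours. Itga9 was 3.87-fold higher in tumor 5 than in tumor 3, the next highest, a ratio on counts of 47 and 10. In tumor 5, it made up 22.6% of the 4 summed α subunits in TPM, against at most 5.51% in the other tumors. In CPM these shares were 17.5% and at most 4.02%.

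Itga4 (ENSMUSG00000027009, plus strand of chromosome 2 from 79255426 to 79333123), the α chain of α4β1 and a leukocyte integrin, had between 0 and 2 counts in each tumor and 6 in all. Itga5 (ENSMUSG00000000555, minus strand of chromosome 15 from 103344286 to 103366763), the α chain of the fibronectin receptor α5β1, had 3 counts in tumor 5, 1 in tumor 3 and 0 in the other 4. Neither exceeded 3 counts in any tumor, and expression was not detectable at this depth. In tumor 3, with the most leukocyte markers, Itga4 had 2 counts. The annotated 3′ end of Itga4 lies within 500 bases of Cerkl and that of Itga9 within 500 bases of Gm2415, so that counting without strand would leave these low values uncertain.

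Among the β subunits, Itgb1 was the most abundant in TPM in every tumor. Itgb1 (ENSMUSG00000025809, plus strand of chromosome 8 from 128685654 to 128733200), the shared β chain of the collagen, laminin and fibronectin receptors, lay between 142 CPM in tumor 2 and 282 CPM in tumor 5, with a median of 213 CPM. Its biological coefficient of variation of 0.302 was the smallest of the 6 members for which one was estimated. Of the summed TPM of the 4 β subunits, Itgb1 held between 68.4 and 84.6%, and it was between 3.55 and 9.49 times as high as Itgb3 in TPM. In CPM its share was 63.8 to 81.4% and the ratio to Itgb3 2.45 to 6.56.

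Itgb3 (ENSMUSG00000020689, plus strand of chromosome 11 from 104608000 to 104670476), the β chain of αvβ3 and of the platelet integrin αIIbβ3, stood at 76.5, 26.7, 70.8, 33.8, 42.9 and 45.7 CPM in tumors 1 to 6. Tumors 1 and 3 were high, with overlapping counting intervals, and tumors 2 and 4 were low. Itga2b, the platelet partner chain, lay between 4.89 and 16.6 CPM and was also highest in tumors 1 and 3. The other platelet markers were near the floor, with Ppbp at a count of 0 in all tumors, Gp9 at no more than 0.20 CPM and Pf4 at no more than 2.20 CPM. Endothelial markers, another source of αvβ3, summed to at most 4.12 CPM.

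Itgb5 (ENSMUSG00000022817, plus strand of chromosome 16 from 33829665 to 33949338), the β chain of αvβ5, was high and low in the same tumors as Itgb3. Its lowest level was 7.57 CPM in tumor 2, its median 18.9 CPM and its highest 34.9 CPM in tumor 3, a 4.61-fold range on 19 to 170 counts. Its coefficient of 0.409 was the largest of the same 6 members, at percentile 84.1 of the ratio. Itgb3 was above Itgb5 in 6 of 6 tumors on both scales. The ratio was 1.22 to 2.12 in TPM and 2.03 to 3.53 in CPM. The tumors in which both genes were highest were tumor 3, with 242 CPM of leukocyte and macrophage markers in sum against at most 55.1 CPM elsewhere, and tumor 1, whose library stood apart. The part of either in these levels was not tested.

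Itgb6 (ENSMUSG00000026971, minus strand of chromosome 2 from 60598292 to 60722643), the β chain of αvβ6, an epithelial integrin that activates latent TGF-β, was the lowest of the 4 in TPM. Its counts in tumors 1 to 6 were 6, 5, 12, 16, 39 and 17. In CPM its level was lowest in tumor 1, at 1.02, and highest in tumor 5, at 7.79, which was 2.29-fold above the next tumor. The interval of tumor 5, from 5.54 to 10.6 CPM, lay above those of the others, with 5.53 CPM as the nearest upper bound. Itgb6 held at most 1.32% of the summed TPM of the 4 β subunits, and at most 2.21% in CPM.

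**Figure D2:**
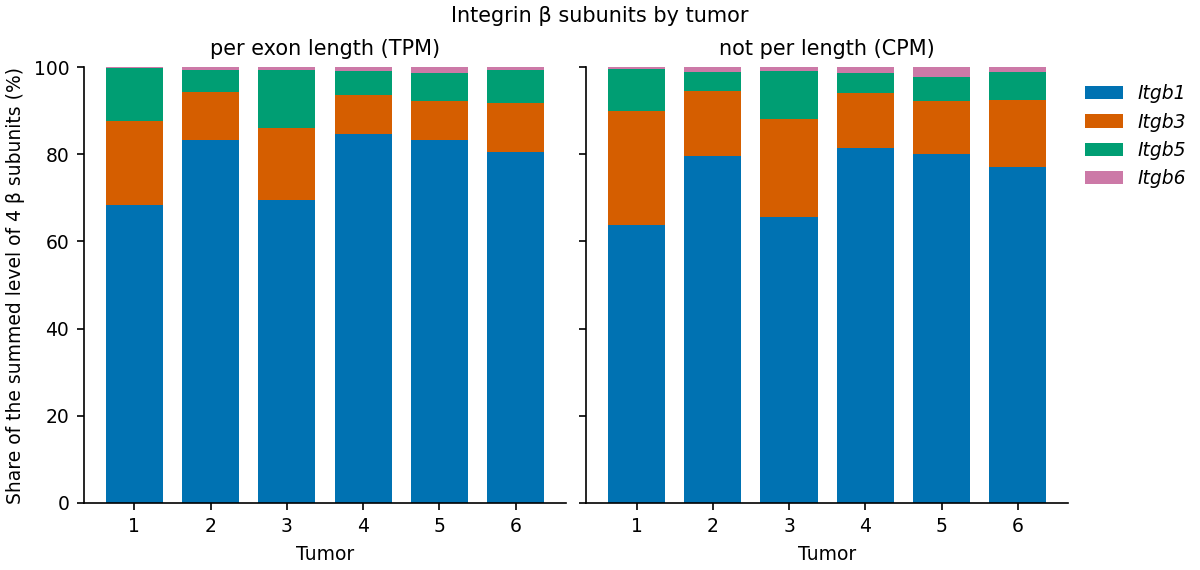
Share of each of 4 integrin β subunits in their summed level in each tumor, in percent, on the TPM scale at the left and the CPM scale at the right. Itgb1 holds at least 68.4% in TPM and 63.8% in CPM, and the share of Itgb3 is largest in tumors 1 and 3 on both scales.

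In TPM, the order of the medians was Spp1 (5288 TPM), Itgb1 (133 TPM), Cd44 (50.1 TPM), Itgb3 (18.6 TPM), Itgb5 (13.2 TPM), Itgav (12.7 TPM), Itgb6 (1.09 TPM) and Itga9 (0.517 TPM), followed by Itga4 and Itga5 at the floor. Spp1 did not overlap with Itgb1, nor did Itgav with Itgb6, while each other pair of neighbours had overlapping ranges. Itgb1 was nevertheless above Cd44 in 6 of 6 tumors, and Cd44 above Itgb3 in 5 of 6. Itgb5 was above Itgav in 2 of 6 tumors in TPM, but Itgav was above Itgb5 in 6 of 6 in CPM, which is not divided by length. Reads of this library type come from the 3′ end of a transcript and depend little on its length. Itgav was above Itgb3 in 1 of 6 tumors in TPM and in 5 of 6 in CPM, so the order of αv against both β3 and β5 depends on the scale. For reads of the 3′ end CPM is the nearer scale, and on it αv was mostly above both. Spp1 was between 58.6 and 176 times as high as Cd44 in TPM, and between 14.2 and 42.9 times in CPM.

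**Figure D3:**
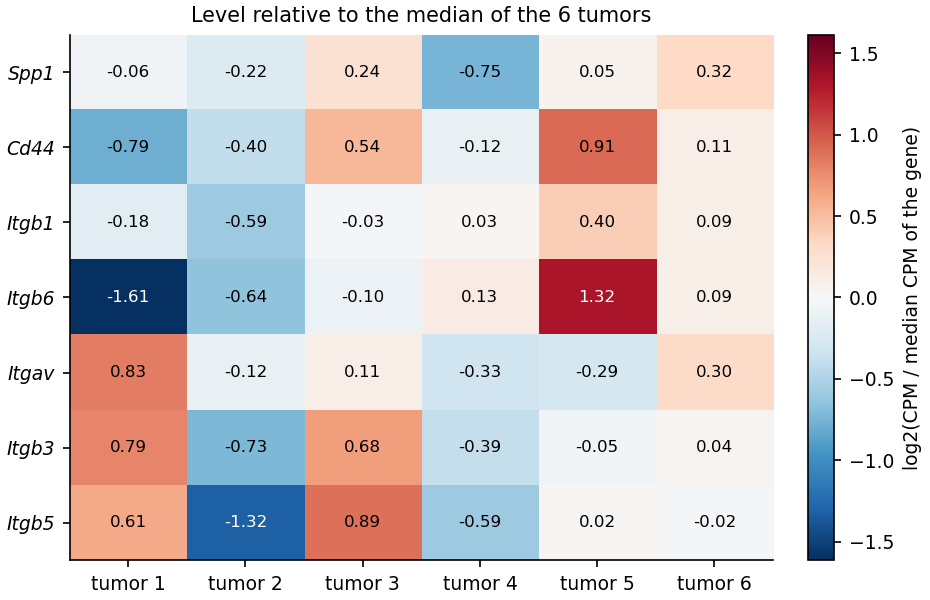
Level of the 7 members with at least 5 counts in every tumor, as log2 of CPM over the median of the gene across the 6 tumors, with red above and blue below the median. Itgav, Itgb3 and Itgb5 lie above their medians in tumors 1 and 3, while Cd44 and Itgb6 are highest in tumor 5 (0.91 and 1.32) and lowest in tumor 1 (-0.79 and -1.61).

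Relations between members over the 6 tumors were computed for Spp1 with each of the 9 receptor genes and for 7 known heterodimers, 16 in all. None passed after Benjamini-Hochberg adjustment over the 16 (0 of 16), and none had an unadjusted exact permutation p under 0.05. Itgav and Itgb3, the chains of αvβ3, had a Pearson's r of 0.68 (exact permutation p = 0.149, adjusted p = 0.656) and a Spearman's rho of 0.71 (exact permutation p = 0.136, adjusted p = 0.568). Without tumors 1 and 6, the farthest from the median of Itgav, r was 0.27. It was 0.43 without tumor 1 alone and 0.70 without tumor 6 alone, so the value leaned on tumor 1, whose library stood apart. Itgav and Itgb6 had an r of -0.66 (exact permutation p = 0.164, adjusted p = 0.656) and a rho of -0.60 (exact permutation p = 0.242, adjusted p = 0.568). Their r was -0.83 without tumors 1 and 6, but -0.28 without tumor 1 alone. With each tumor left out it ranged from -0.84 to -0.28. For Spp1 and Cd44, r was 0.35 (exact permutation p = 0.514, adjusted p = 0.747) and rho 0.54 (exact permutation p = 0.297, adjusted p = 0.568), with an r of 0.68 without tumors 4 and 6. For Spp1 and Itgb3, r was 0.46 (exact permutation p = 0.358, adjusted p = 0.711) and rho 0.54 (exact permutation p = 0.297, adjusted p = 0.568), with an r of 0.54 without tumors 4 and 6. The relations with Itga4 and Itga5 rest on no more than 3 counts and were not read. With 6 tumors, only close relations can pass, the smallest exact p being 0.00139 for r and larger for rho.

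Whether the members move with hypoxia was asked with the study's 3-gene hypoxia signature, taken here as the mean TPM of Vegfa, Slc2a1 and Car9, which are targets of hypoxia-inducible factors. The p-values measure only the spread between these 6 samples. From tumor 1 to tumor 6, the score was 48.5, 37.2, 51.4, 76.6, 94.4 and 47.3 TPM. Slc2a1 had the highest TPM of the 3 genes in every tumor and so weighs most in this mean. By their geometric mean, tumor 1 was the lowest, at 29.0 TPM. The slope of each gene on log2 of the score was tested with edgeR's quasi-likelihood test over 12560 genes, with Benjamini-Hochberg adjustment. No gene had an adjusted p under 0.05 (0%), and 540 genes, or 4.3%, had an unadjusted p under 0.05. DESeq2 called 21 genes, none of them a member. Of the members, 8 passed the filter on low counts and were tested, and Itga4 and Itga5 did not. Among the 8, 0 had an adjusted p under 0.05 and 1, Itga9, had an unadjusted p under 0.05.

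The level of Spp1 had no detectable slope. It changed by -0.25 on the log2 scale per doubling of the score (SE 0.43, adjusted p = 0.958 in edgeR), with a 95% interval from -1.21 to 0.70. The interval holds an increase as well as a decrease, so it does not show that Spp1 is independent of the score. Tumor 5, with the highest score, was the third for Spp1, and tumor 4, with the next highest, was the lowest. Without tumor 4 the slope was 0.02 (SE 0.51).

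Itga9 had the steepest slope of the members, 2.96 per doubling (SE 0.80, unadjusted p = 0.0045, adjusted p = 0.927 in edgeR). It did not pass the adjusted test and rests on tumor 5. Without that tumor and without the filter, which drops the gene there, the slope was 2.08 (SE 1.74, unadjusted p = 0.242 in edgeR). Itgb6 had a slope of 1.35 (SE 0.62, adjusted p = 0.951), and without tumor 5 of 0.65 (SE 1.10). Cd44 had a slope of 0.69 (SE 0.42, adjusted p = 0.951), with a 95% interval from -0.25 to 1.64, and of 0.17 (SE 0.73) without tumor 5. The other 4 slopes lay between -0.58 for Itgav (SE 0.40) and 0.47 for Itgb1 (SE 0.34), with Itgb3 at -0.24 (SE 0.50) and Itgb5 at -0.08 (SE 0.62). The median slope of all genes tested was -0.04. Sample names carry 1 of 2 prefixes (QAF for 4 tumors, QSD for tumors 2 and 3), of unknown meaning, and with the prefix as a term the slope of Spp1 was -0.31 (SE 0.50) and that of Itga9 3.29 (SE 0.99), both short of the adjusted threshold.

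**Figure D4:**
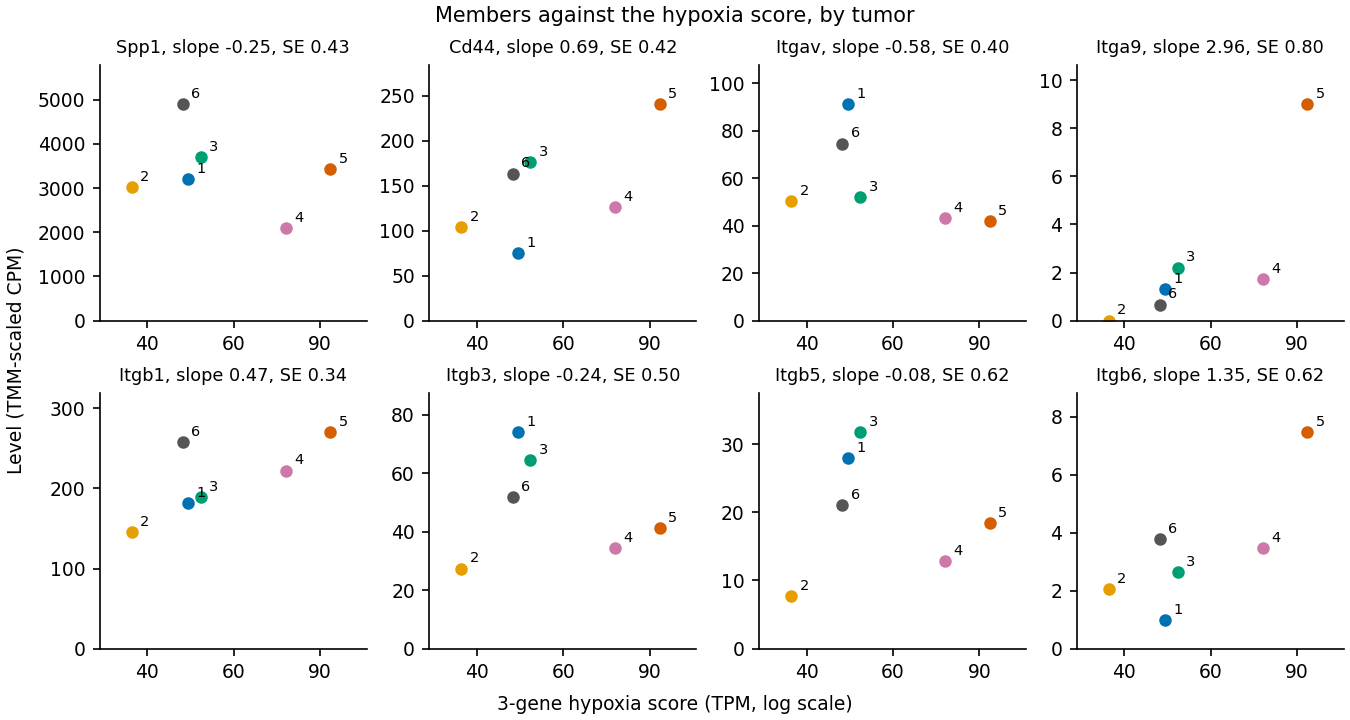
Level of 8 members in TMM-scaled CPM against the 3-gene hypoxia score in TPM on a log axis, 1 point per tumor with its number, and the edgeR slope per doubling of the score above each panel. Itga9 and Itgb6 are highest in tumor 5, which has the highest score of 94.4 TPM, and Spp1 is lowest in tumor 4.

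The same integrins bind other ligands and their chains pair with other partners, which were taken from lists. Of 12 other ligands of these integrins, 9 had more than 3 counts in some tumor. Mfge8, a milk fat globule protein that binds αvβ3 and αvβ5 through the same motif as osteopontin, was the highest in CPM, at 14609 CPM in tumor 1, whose library stood apart, and between 3561 and 6128 CPM in the others. Whether it was above Spp1 depends on the scale: the medians were 2103 and 5288 in TPM, and 3842 and 3442 in CPM, where Mfge8 was above Spp1 in 5 of 6 tumors. CPM is the nearer scale for reads of the 3′ end. Thrombospondin (Thbs1) lay between 24.8 and 175 CPM. Vitronectin (Vtn), a classical ligand of αvβ3 and αvβ5, and Fga had a count of 0 in all tumors.

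Fn1 and Tnc, which encode fibronectin and tenascin-C, ligands of αvβ6 and α9β1 among others, were highest in the tumor that was highest for Itgb6 and Itga9. Fn1 had 61.1, 6.38, 17.2, 58.1, 666 and 30.3 CPM in tumors 1 to 6. Tnc had 130 CPM in tumor 5 and between 15.1 and 26.4 CPM in the others. Tumor 5 was thus above the other 5 for both genes. The basal keratin Krt17 likewise reached 127 CPM in tumor 5, with 40.8 CPM as the next highest value, and Krt14 reached 359 CPM there, with 241 CPM as the next. The other basal markers above the floor were not highest in tumor 5: Trp63 had 4.59 CPM there and 10.4 CPM in tumor 3, Krt5 had 10.2 CPM there and 17.4 CPM in tumor 4, and Mylk had 32.1 CPM there and 65.7 CPM in tumor 1, while Acta2 and Myh11 were near 0 in all tumors. Fibroblast markers, another source of both matrix proteins, gave a sum of 22.0 CPM there, and the other tumors spanned 15.1 to 25.9 CPM. The part of basal cells in the levels of Fn1, Tnc, Itga9 and Itgb6 was not tested. The slopes on the score were 4.05 for Fn1 (SE 0.69, adjusted p = 0.418 in edgeR) and 2.08 for Tnc (SE 0.42, adjusted p = 0.433 in edgeR). Of the 8 ligand genes tested, none passed the adjusted test, 3 (Fn1, Tnc and Edil3, the last named after its values were seen) had an unadjusted p under 0.05 beside the 4.3% of all genes, and the median slope was 1.00.

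**Figure D5:**
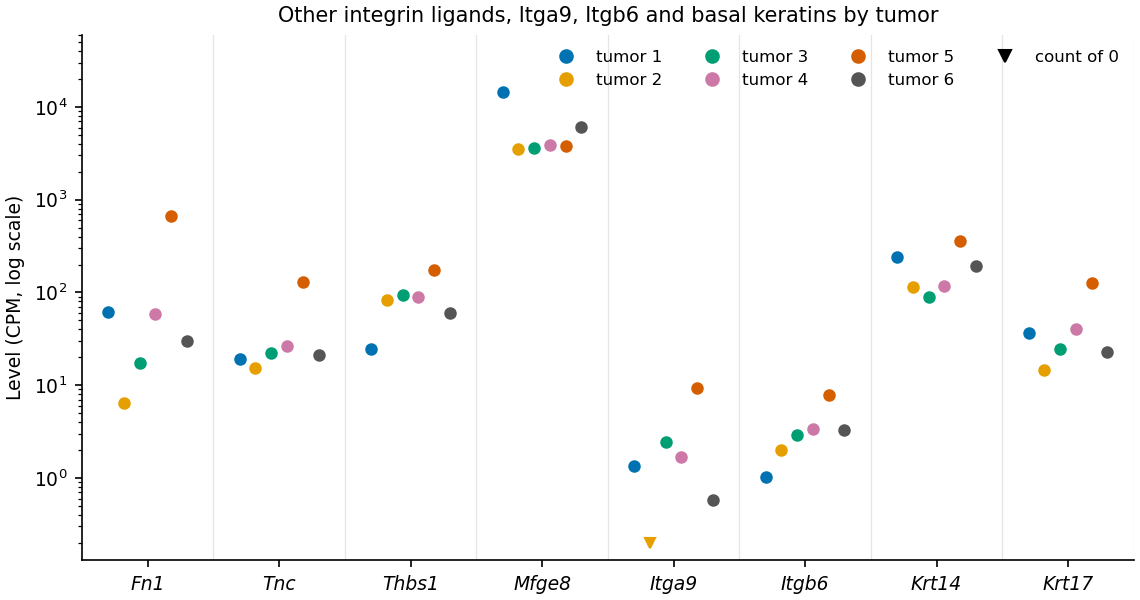
Level in CPM on a log axis of 4 other integrin ligands, Itga9, Itgb6 and 2 basal keratins in each of the 6 tumors, with a triangle for a count of 0. Tumor 5 is highest for Fn1 (666 CPM), Tnc, Thbs1, Itga9, Itgb6 and both keratins, and tumor 1 is highest for Mfge8 (14609 CPM).

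Among 14 other α subunits, Itga6 and Itga3, the α chains of laminin receptors, were the highest in CPM. Itga6 was at 91.3 CPM in tumor 1 and ranged from 290 to 512 CPM elsewhere, and Itga3 lay between 98.5 and 226 CPM. Their medians were 104 and 57.6 TPM, against 12.7 TPM for Itgav. Itga8, an α chain that pairs with β1 and binds the same motif as αv, lay between 6.28 and 25.0 CPM. Of the 4 other β subunits, Itgb4, the partner of α6, lay between 93.5 and 215 CPM and Itgb8, a further partner of αv, between 13.9 and 43.3 CPM. Itgb2 and Itgb7, leukocyte chains, reached 8.73 CPM and 1.45 CPM, both in tumor 3. Of 7 α and 2 β genes tested, none passed the adjusted trend test. Itga10, named after its values were seen, and Itgb8 had an unadjusted p under 0.05, with slopes of -1.60 (SE 0.64) and 0.82 (SE 0.35). Of all genes tested, 4.3% had such a p in edgeR.

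The enzymes that modify or cut osteopontin were given by a list of 9. Fam20c, the kinase that phosphorylates secreted proteins, lay between 11.0 CPM in tumor 5 and 67.9 CPM in tumor 1. Acp5, a phosphatase acting on osteopontin, lay between 24.3 and 60.7 CPM, and Tgm2, a transglutaminase that crosslinks it, between 70.5 and 206 CPM. All 3 were highest in tumor 1, whose library stood apart. Plau reached 4.79 CPM. Thrombin (F2) and Mmp3, Mmp7 and Mmp9, which can cleave osteopontin, stayed at or below 0.799 CPM. Mmp2, on the same list, reached 2.42 CPM, at 10 counts in tumor 3. Protease supplied by other cells or by blood was not measured. Of 4 genes tested, none passed and none had an unadjusted p under 0.05.

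Components that link integrins to actin and to signaling were given by further lists. Of 17 adhesion genes, all had more than 3 counts in some tumor, and Actn4 (338 to 1177 CPM), Tln1 (184 to 509 CPM), Parva (129 to 228 CPM) and Actn1 (114 to 262 CPM) were the highest in CPM. Their median slope was -0.01, with 8 of the 16 tested above 0. The study places STAT3, NF-κB and PD-L1 downstream of osteopontin in macrophages. It also reported that osteopontin raised PD-L1 in a tumor cell line of this model. By flow cytometry, it found more PD-L1 protein on tumor cells of highly hypoxic treated tumors than of less hypoxic ones. In the sorted tumor cells followed here, Stat3 lay between 597 and 1081 CPM. The NF-κB genes Rela and Nfkb1 lay between 77.3 and 212 CPM and between 19.9 and 77.3 CPM. Cd274, which encodes PD-L1, lay between 0.390 and 2.42 CPM, and PD-L1 protein was not measured here. Socs3, a target of STAT3 added to this list, lay between 42.8 and 134 CPM. Of 10 transcription factors linked to Spp1, Sox9 lay between 861 and 1399 CPM, Jun between 244 and 899 CPM, Fos between 336 and 686 CPM and Hif1a between 82.9 and 147 CPM. Runx2, named for the RUNX core above after its values were seen, lay between 3.90 CPM in tumor 1 and 15.1 CPM in tumor 2. In these 3 lists, no gene tested passed the adjusted trend test, and Lims1, an adhesion gene named after its values were seen, was the only 1 with an unadjusted p under 0.05 (slope 1.21, SE 0.41). The share of all genes with such a p was 4.3%.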

How the data were processed

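CD45-EPCAM+ cells of 6 B20-4.1.1-treated MMTV-PyMT tumors were profiled with a 3′ end RNA library kit (QuantSeq FWD) that adds molecular identifiers. The deposited files hold unnormalized counts, which the authors obtained by trimming, alignment with STAR 2.5 to the mm10 build (GRCm38) and counting over genes in HTSeq. The annotation release, the strand setting and whether identifiers were used to merge reads are not given in the sources used here. Replicates were not pooled.

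Symbols, coordinates and exon lengths came from GENCODE (GRCm38), and promoters from RefSeq GRCm38.p6. The 5 summary lines of HTSeq that name no gene held between 16.1 and 41.4% of all counts of a library and were left out. CPM used all counts on genes, and TPM the union of exons. Counting intervals are exact Poisson intervals at 95%. Members of the hypoxia score were left out of counts of calls. Slopes were fitted in edgeR 4.0.16 (R 4.3.3; TMM, filterByExpr, glmQLFit, glmQLFTest) on log2 of the score over all genes kept, with Benjamini-Hochberg adjustment at 0.05. The code was also run on simulated counts with less spread than these data, which does not show how the test performs here. DESeq2 1.42.0 was an alternative. Relations used log2(TMM-scaled CPM + 1) with two-sided exact permutation over 720 orders. The biological coefficient of variation came from a fit with an intercept alone, which kept 10416 genes.

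The members and lists were chosen with earlier results of these data known. Besides members, genes were named as the 4 highest by mean CPM in a list, as markers, or as the 5 most like Spp1 or Cd44. Others were named after their values were seen, for their role or their low level (Vtn, Fga, Has1, Has2, Has3, F2, Mmp2, Mmp3, Mmp7, Mmp9, Cd274, Runx2) or for an unadjusted p under 0.05 (Hmmr, Itga10, Edil3, Lims1). Depth ran from 2509482 to 5893246 counts. Other scalings, filters, scores, pseudocounts, the identifier prefix and leaving out each tumor were tried as alternatives.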

Additional observations from a re-analysis of the deposited data

Results flagged for a closer look

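Of 20 measures examined for a tumor far from the other 5, 6 had one. The cutoff flags about 1 in 20 groups of independent, normally distributed values. These measures are levels in CPM for the most part, and several flags fall in the same tumor. The 6 are therefore not read as an excess over chance. The level of Itga9 in tumor 5, 9.38 CPM, lay 0.742 of the whole range above the next tumor at 2.42 CPM. The level of Itgb6 in tumor 5, 7.79 CPM, lay 0.648 of the range above the next at 3.40 CPM. Both genes stand in the tumor with the highest hypoxia score and the most Krt14 and Krt17, which cannot be told apart in 1 tumor. Of the other basal markers, Krt5, Trp63, Mylk and Acta2 were higher in other tumors. The library of tumor 1 had a median correlation of 0.788 with the other libraries (gap 0.773). In tumor 3, leukocyte and macrophage markers summed to 242 CPM (gap 0.832), T cell markers to 1.21 CPM (gap 0.835) and erythroid markers to 864 CPM (gap 0.926). The T cell sum there rests on 4 counts of Cd3e and 1 of Cd4.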

How the results depend on the processing

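The median level of a member moved beyond the spread between tumors in 1 of 30 results under another scaling: for Itgb1 it was 267 CPM without the 10 most abundant genes, against 213 CPM. The number of genes with a slope on the hypoxia score was 0 in edgeR, 21 with DESeq2 (19 up, 2 down) and 10 with no filter, and 2 without tumor 1 (a range of 0 to 2 over the tumors left out). The cause was not tested, and no member was among the genes DESeq2 called. The slopes of the members kept their direction in 48 of 48 results under other tools, scalings, filters, scores and the identifier prefix. With each tumor left out, 42 of 48 kept it, 2 of them for Itga9 fitted without the filter, an alternative chosen after seeing the data. The others changed sign around 0, with ranges from -0.78 to 0.015 for Spp1, from -0.76 to 0.018 for Itgb3 and from -0.73 to 0.29 for Itgb5. The r of Spp1 with Itga9 was 0.12 in CPM, against -0.04. With each tumor left out, r ranged from -0.43 to 0.17 for Itgav and Itgb1, from -0.087 to 0.72 for Itga5 and Itgb1, and for Spp1 from -0.18 to 0.54 with Itga4, from -0.11 to 0.53 with Itga5, from -0.18 to 0.25 with Itga9, from -0.090 to 0.66 with Itgb1 and from -0.013 to 0.35 with Itgb6. No relation passed the adjusted test under any of these. With a tumor left out there are fewer orders, and 1 relation alone could not pass whatever its r. Those settings therefore cannot decide whether a relation holds. The biological coefficients of variation stayed within 1.5 times of the value given in 42 of 42 results. Being drawn toward fitted values, they are partly steadied by the method. No paired analysis was possible because there is 1 group. Depth limits Itga4, Itga5, Itga9 and Itgb6, whose values rest on at most 47 counts.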
